A study of Rattus norvegicus with 19 samples.

Results

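Transcriptionally active putative enhancers (TAPEs) are stretches of open chromatin outside genes that give rise to RNA from both strands, and each was paired with every gene whose start site lay within 1 Mb of its centre. Of 27538 TAPEs, 1516 (5.51%) were paired with exactly 1 gene symbol, and these single-gene TAPEs shared 266 genes. Only genes that had a correlation value in the table count toward this rule, so a gene with no reads in any library could lie closer. For 4 of the 1516, the 1 symbol stood at 2 positions. A further caution is that 29 of them lay in the first 1 Mb of a chromosome, where the search window was cut short. Those in the last 1 Mb were not counted.

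The RNA came from primary neurons of Sprague-Dawley rat embryos at embryonic day 18, taken from cortex, hippocampus or striatum and grown for 11 days in vitro. Cultures then received vehicle (neurobasal medium) or potassium chloride (KCl), a depolarizing stimulus, for 1 h. KCl was at 25 mM according to the sample labels and at 10 mM according to the series text. Cortex and hippocampus had 3 vehicle and 3 KCl libraries each, and striatum had 4 vehicle and 3 KCl libraries, 19 in all. These numbers follow the sample titles, and the study's methods assign the extra striatal library to the other treatment. One cortex vehicle library (replicate 3) has a striatal tissue tag; over TAPEs that depend on region, its r was 0.384 against striatum, 0.639 against hippocampus and 0.875 against its fellow cortex libraries, and all 19 libraries were closest to their own region. Library totals, recovered from the CPKM values, ran from 46.4 to 72.5 (in units of 1e6 reads), and 1778 to 3777 reads lay in single-gene TAPEs. These totals exceed the reads per sample that the study's methods state, and the reason was not examined. The labels do not say that replicates came from separate cultures, so p-values measure the spread between these libraries.

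Enhancers are regulatory DNA elements that act on promoters over distances of up to many kilobases, often skipping genes in between. Many are themselves transcribed into short, unstable enhancer RNAs, and the level of such RNA often follows the activity of the element. Where several genes lie within reach, the target is ambiguous. Long intergenic stretches with few genes are known to flank developmental regulators and cell adhesion genes of the nervous system, and a TAPE in such a stretch has only 1 annotated candidate nearby.

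The other end of such a pair is the promoter. Shown here are the 250 bases before the start site for 3 genes whose TAPEs recur in the results, taken from the RefSeq promoter table of the GRCr8 assembly. They are Ptprd, a receptor-type tyrosine phosphatase of synaptic adhesion with 2 listed starts, Cntn3, a contactin of the immunoglobulin family of cell adhesion molecules, and Cdh7, a type II cadherin. Capitals mark 3 motifs on either strand. The GC box was searched as GGGCGG and the TATA motif as TATAAA. The letters of the AP-1 motif were TGANTCA, where N is any base, and neighbouring GC boxes may overlap.
Ptprd, first start (chr5:97415499-97415748, minus strand): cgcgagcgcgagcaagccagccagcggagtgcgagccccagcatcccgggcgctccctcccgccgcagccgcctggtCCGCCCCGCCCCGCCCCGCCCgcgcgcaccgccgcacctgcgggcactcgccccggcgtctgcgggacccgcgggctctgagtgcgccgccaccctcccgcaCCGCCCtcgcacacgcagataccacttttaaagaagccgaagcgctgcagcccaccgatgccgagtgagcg
Ptprd, second start (chr5:95483932-95484181, minus strand): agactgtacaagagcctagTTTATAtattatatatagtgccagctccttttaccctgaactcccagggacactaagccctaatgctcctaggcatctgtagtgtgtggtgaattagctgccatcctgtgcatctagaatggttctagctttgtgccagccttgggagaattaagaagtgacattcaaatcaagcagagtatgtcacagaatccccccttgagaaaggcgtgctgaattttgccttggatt
Cntn3 (chr4:136681912-136682161, minus strand): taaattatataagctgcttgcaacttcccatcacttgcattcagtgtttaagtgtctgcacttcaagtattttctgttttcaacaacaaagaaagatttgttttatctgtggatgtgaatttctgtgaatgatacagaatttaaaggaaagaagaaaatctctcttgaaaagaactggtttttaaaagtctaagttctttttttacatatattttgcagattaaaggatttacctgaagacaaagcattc
Cdh7 (chr13:27197332-27197581, plus strand): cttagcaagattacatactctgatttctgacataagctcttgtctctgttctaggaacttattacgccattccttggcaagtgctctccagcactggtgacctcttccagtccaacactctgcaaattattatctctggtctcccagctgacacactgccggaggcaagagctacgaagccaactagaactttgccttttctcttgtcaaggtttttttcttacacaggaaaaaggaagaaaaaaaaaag
The first Ptprd window had a GC content of 76.4% and 5 GC boxes, and its second window 44.4% with 1 TATA motif. The Cntn3 and Cdh7 windows had a GC content of 30.0% and 42.8% and none of the 3 motifs, which says only that these letters are absent there. Among all 33469 windows of this length, 30.5% held a GC box, 12.9% a TATA motif and 6.34% an AP-1 motif.

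The only gene within reach was rarely close. The distance from TAPE centre to gene start had a median of 562424 bp (quartiles 293171 and 817625 bp) and ran from 2257 to 999759 bp. For the other 26022 TAPEs, the nearest of their genes lay at a median of 82518 bp. Only 128 single-gene TAPEs (8.44%) had their gene within 100 kb, against 55.4% of the other TAPEs, and 831 (54.8%) had it at 500 kb or more, against 5.58%. The rule itself favours sparse stretches, so these values describe the set. In the direction of transcription, 927 (61.1%) lay 5′ of the gene start and 589 (38.9%) lay past the gene end, and none overlapped the gene.

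**Figure D1:**
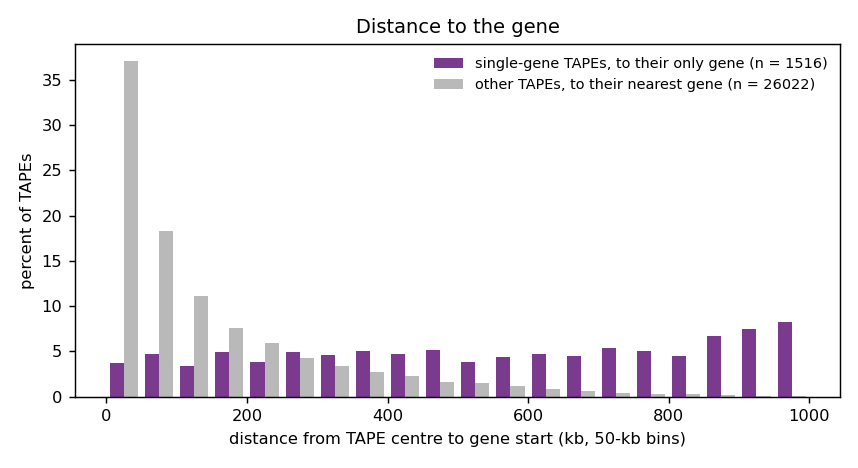
Distance from TAPE centre to gene start in 50-kb bins (x axis, kb) against the percent of TAPEs (y axis), for single-gene TAPEs to their only gene and for other TAPEs to their nearest gene. The single-gene TAPEs spread over the whole 1 Mb window with a median of 562424 bp, whereas the nearest genes of other TAPEs pile up at the left with a median of 82518 bp.

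Whether a TAPE lies outside a gene depends on the gene model. RefSeq lengths in GRCr8 were at hand for 1341 of the 1516 pairs (88.5%), and for 80 of them the RefSeq model was longer than the deposited one by at least the gap between TAPE and gene. Among the TAPEs with enough reads to test, this held for 7 of 35: all 3 of Ptprd and 1 each of Celf2, Cntn3, Maf and Slitrk2. The RefSeq model of Ptprd spans 2322280 bp and the deposited one 381935 bp, while its TAPEs lie 121277 to 160879 bp beyond the deposited start. Of the 2 RefSeq starts of Ptprd shown above, that at chr5:97415499-97415748 lies 5′ of that at chr5:95483932-95484181 (minus strand). The 3 TAPEs lie 5′ of the deposited start, so they may fall inside the longer Ptprd model. Which RefSeq start matches the deposited one was not examined, since the assemblies differ. For the other genes the side of the extra length was not examined either.

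The single-gene TAPEs clustered on a modest number of genes. The median gene had 4 of them, 60 genes had 1, and the 53 genes with 10 or more held 787 TAPEs (51.9%). The 10 most frequent genes were Zfp608, a zinc finger protein, with 36 TAPEs, Ebf1, a transcription factor of striatal projection neurons, with 33, LOC300308 with 26, Gbe1, the glycogen branching enzyme, with 25, and Nova1, a neuronal splicing regulator, with 24. They were followed by Tbl1xr1, a subunit of nuclear receptor corepressor complexes, with 23, Celf2, an RNA-binding splicing regulator, with 22, and Fam50a, Nudt12 (a nudix hydrolase) and LOC498555 with 20 each. TAPEs of 1 gene are neighbours along 1 chromosome and share their candidate, so they are not independent of each other.

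The TAPEs of Zfp608 spanned chromosome 18 from 49961675 to 50481289, 25235 to 543158 bp from the gene start, and those of Ebf1 spanned chromosome 10 from 22810139 to 24655436, on both sides of the gene. LOC300308, matched in RefSeq by its gene ID to the transcribed pseudogene Smokl3, was different. All of its 26 TAPEs lay between 22015408 and 22401080 on chromosome 7, and the nearest was 611828 bp from the gene start.

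By function, cell adhesion genes made up the largest of the lists: 263 TAPEs belonged to 42 such genes, among them cadherins, protocadherins, contactins and Slitrk proteins. The lists differ in length, and no share among the genes of other TAPEs is given, so these counts show no enrichment. Transcription factors held 133 TAPEs over 15 genes, with the shortest median distance of the lists, 295725 bp. Axon guidance genes (ephrins, Eph receptors, Robo and Slit proteins) held 64 TAPEs over 11 genes at a median of 739470 bp. Ion channels held 19 TAPEs over 5 genes and neurotransmitter and peptide receptors 19 over 6. Genes known by a LOC number only, which include predicted genes and pseudogenes, held 312 TAPEs (20.6%) over 52 genes, and 706 TAPEs belonged to 135 genes outside the lists.

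CPKM, the reads per kilobase of TAPE per 1e6 reads of the library, was low. The median single-gene TAPE held 12 reads summed over the 19 libraries, and 611 (40.3%) held fewer than 10; the median of the other TAPEs was 14 reads. Both mates of a fragment may have been counted. Between 427 and 620 single-gene TAPEs had any read in a given library. Only 44 of the 1516 (2.90%) reached a mean of 0.05 CPKM over all libraries and could be tested, compared with 7.02% of the other TAPEs. These 44 belonged to 20 genes, 14 of them to LOC300308. In bulk RNA, fewer cells of a type and less RNA per cell cannot be told apart.

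Single-gene TAPEs took a larger share of all TAPE reads in cortex than elsewhere: 4.42% ± 0.27 (SD, n = 6), compared with 3.78% ± 0.06 (SD, n = 6) in hippocampus and 3.67% ± 0.15 (SD, n = 7) in striatum. Every cortex library (4.14 to 4.89%) lay above every hippocampal library (3.69 to 3.86%) and every striatal one (3.44 to 3.82%). This rested on few genes. LOC300308, Ptprd, Celf2, LOC108349637 and LOC102547949 had the most reads, LOC300308 alone holding 19.8% of the reads in single-gene TAPEs. Without these 5 genes, a choice made after seeing the data, the shares were 2.39% ± 0.09, 2.35% ± 0.07 and 2.50% ± 0.11, and the regions overlapped.

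By limma's F-test over the 3 regions, with Benjamini-Hochberg adjustment over 1870 TAPEs, 35 of the 44 single-gene TAPEs were called at an adjusted p under 0.05, and the share of all tested TAPEs called was 48.8%. The 35 belonged to 17 genes. Without the 14 TAPEs of LOC300308, of which 11 were called, the count was 24 of 30 (a choice made after seeing the data). Selective for cortex, meaning above both other regions, were 7 of the 44 (5.67% of all tested), and 8 were selective for striatum (16.7% of all tested). None was selective for hippocampus (6.74% of all tested). The mean was highest in cortex for 24 of the 44, in striatum for 13 and in hippocampus for 7.

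The TAPE with the highest mean, 0.659 CPKM from 2898 reads, had Ptprd as its gene (chromosome 5, 93363513 to 93367446). Its CPKM was 0.905, 0.722 and 1.03 in cortex vehicle libraries, 0.537, 0.795 and 0.773 in cortex KCl, 0.607, 0.722 and 0.585 in hippocampus vehicle, 0.609, 0.498 and 0.521 in hippocampus KCl, 0.626, 0.615, 0.662 and 0.672 in striatum vehicle and 0.538, 0.558 and 0.546 in striatum KCl. The regions overlapped, and the F-test gave an adjusted p of 0.0363 with limma.

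A second Ptprd TAPE (93399110 to 93400665), 155686 bp from the gene start, separated the regions more widely. Its CPKM was 0.587, 0.585 and 0.506 in cortex vehicle and 0.346, 0.670 and 0.761 in cortex KCl. Hippocampal libraries held 0.182, 0.122 and 0.140 with vehicle and 0.135, 0.0113 and 0.128 with KCl. Striatal libraries held 0.124, 0.375, 0.233 and 0.178 with vehicle and 0.0849, 0.130 and 0.123 with KCl. Only 1 striatal library exceeded the lowest cortical one. The difference from cortex was -1.96 in hippocampus and -1.52 in striatum on the log2(CPKM + 0.05) scale (limma adjusted p = 1.11e-06). The third, at 93404418 to 93405744, averaged 0.527 ± 0.140 CPKM in cortex (SD, n = 6), 0.0744 ± 0.0555 in hippocampus (SD, n = 6) and 0.137 ± 0.055 in striatum (SD, n = 7), with a limma adjusted p of 1.3e-07.

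The 3 tested Celf2 TAPEs were all selective for cortex, although they lay 473617 to 571131 bp upstream of the gene. The strongest (chromosome 17, 74780284 to 74782231) held 0.897, 0.651 and 1.17 CPKM in cortex vehicle, 0.597, 0.544 and 0.796 in cortex KCl, 0.336, 0.389 and 0.316 in hippocampus vehicle, 0.180, 0.226 and 0.316 in hippocampus KCl, 0.325, 0.279, 0.345 and 0.248 in striatum vehicle and 0.116, 0.199 and 0.138 in striatum KCl. Every cortical library was above every other library. The difference from cortex was -1.25 log2 units in hippocampus and -1.55 in striatum, with an adjusted p of 7.1e-07 by limma. The neighbour at 74804872 to 74806505 averaged 0.529 ± 0.191 CPKM in cortex (SD, n = 6), 0.206 ± 0.065 in hippocampus (SD, n = 6) and 0.167 ± 0.083 in striatum (SD, n = 7), with a limma adjusted p of 1.58e-05.

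The 3 tested TAPEs of LOC102547949, a long non-coding RNA in RefSeq, were nearly silent in hippocampus. The strongest (chromosome 2, 254530148 to 254533893) held 0.428, 0.313 and 0.448 CPKM in cortex vehicle, 0.374, 0.525 and 0.437 in cortex KCl, 0.268, 0.333, 0.345 and 0.332 in striatum vehicle and 0.323, 0.359 and 0.322 in striatum KCl. The 6 hippocampal libraries held 0.00944, 0.0184 and 0.00967 with vehicle and 0.0280, 0 and 0.00889 with KCl, far below all others. The limma adjusted p was 2.03e-14. A second one (254343497 to 254345868), selective for cortex, averaged 0.184 ± 0.073 CPKM in cortex (SD, n = 6), 0.110 ± 0.034 in striatum (SD, n = 7) and 0.00496 ± 0.0121 in hippocampus (SD, n = 6), where 5 of 6 libraries held no read (limma adjusted p = 1.64e-08). Across the 19 libraries, the log2 values of the 3 TAPEs correlated with each other at 0.869 to 0.916, as a description of neighbours that share libraries.

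Of the 14 tested TAPEs of LOC300308, 11 were called by region, each with its lowest mean in striatum. The other 3 (22021516, 22027990 and 22053510) were not called, and that at 22027990 averaged 0.104 CPKM in striatum, 0.0907 in cortex and 0.0599 in hippocampus. On chromosome 7, 10 of the 14 lay between 22361815 and 22401080. The strongest (22383251 to 22385415) held 0.867, 0.535 and 1.02 CPKM in cortex vehicle, 0.597, 0.311 and 0.533 in cortex KCl, 0.678, 0.676 and 0.745 in hippocampus vehicle, 0.485, 0.562 and 0.531 in hippocampus KCl, 0.285, 0.158, 0.319 and 0.176 in striatum vehicle and 0.148, 0.281 and 0.195 in striatum KCl. Only 1 cortical library (0.311) fell inside the striatal range. Striatum stood at -1.30 log2 units from cortex (limma adjusted p = 1.08e-06). The next (22391023 to 22396688) averaged 0.471 ± 0.116 CPKM in cortex (SD, n = 6), 0.454 ± 0.086 in hippocampus (SD, n = 6) and 0.152 ± 0.049 in striatum (SD, n = 7). The one farthest from the gene (22015408 to 22017060, at 995836 bp) averaged 0.299 ± 0.095, 0.359 ± 0.093 and 0.0518 ± 0.0235 CPKM in the same order, and that at 22361815 to 22363916 averaged 0.203 ± 0.058, 0.202 ± 0.045 and 0.0829 ± 0.0340. Their limma adjusted p-values were 1.25e-07, 2.02e-09 and 0.000275.

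Of the 8 TAPEs selective for striatum, 3 were paired with cell adhesion genes (Cdh7, Cntn3 and Slitrk5), 2 with transcription factors (Maf and Meis2) and 3 with LOC genes. The Cntn3 TAPE (chromosome 4, 135157415 to 135160422, 88949 bp beyond the gene start) held 0.398, 0.395, 0.270 and 0.316 CPKM in striatum vehicle and 0.201, 0.300 and 0.166 in striatum KCl. In cortex it held 0.0693, 0.0642 and 0.0988 with vehicle and 0.0501, 0.0391 and 0.0486 with KCl, and in hippocampus 0.0235, 0.0172 and 0.0301 with vehicle and 0.0582, 0.00586 and 0.0332 with KCl. Every striatal library was above all others, by 1.59 log2 units over cortex (limma adjusted p = 3.37e-09).

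The Maf TAPE (chromosome 19, 47866137 to 47867929, 329715 bp from the start of this bZIP transcription factor gene) held 0.0884, 0.0899, 0.115 and 0.135 CPKM in striatum vehicle and 0.0948, 0.144 and 0.107 in striatum KCl. Cortical libraries held 0.0358, 0 and 0.0331 with vehicle and 0, 0.00938 and 0.0326 with KCl, and hippocampal ones 0.0493, 0.115 and 0.0202 with vehicle and 0, 0.0197 and 0.0186 with KCl. One hippocampal vehicle library reached the striatal range. The difference of striatum from cortex was 1.26 log2 units (limma adjusted p = 0.000112). With the replicate number as a block, the region call of this TAPE was lost. The Cdh7 TAPE (chromosome 13, 31238671 to 31240274), 8260 bp past the gene end, averaged 0.248 ± 0.063 CPKM in striatum (SD, n = 7), 0.164 ± 0.049 in cortex (SD, n = 6) and 0.0827 ± 0.0517 in hippocampus (SD, n = 6), with a limma adjusted p of 0.000185.

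Slitrk5 encodes a synaptic transmembrane protein with leucine-rich repeats. Its TAPE (chromosome 15, 96853661 to 96854935) held 0.207, 0.174, 0.162 and 0.149 CPKM in striatum vehicle and 0.163, 0.174 and 0.0902 in striatum KCl, all above the highest cortical library, 0.0755, and the highest hippocampal one, 0.0284 (limma adjusted p = 2.9e-06). The LOC499584 TAPE (chromosome 2, 109427445 to 109429258) averaged 0.118 ± 0.059 CPKM in striatum (SD, n = 7), 0.0222 ± 0.0282 in cortex (SD, n = 6) and 0.00945 ± 0.0156 in hippocampus (SD, n = 6), with a limma adjusted p of 4.31e-05. The TAPE nearest to its gene among those tested lay 3780 bp from the start of Slitrk2 on the X chromosome (151098716 to 151100877). It averaged 0.158 ± 0.046 CPKM in cortex, 0.152 ± 0.044 in hippocampus and 0.0740 ± 0.0585 in striatum (SD, n = 6, 6 and 7), with overlap (limma adjusted p = 0.00974). All 4 tested TAPEs of cell adhesion genes and all 3 of transcription factors (Maf, Meis2 and Zfp608) were called by region, beside 20 of 28 with a LOC gene and 8 of 9 with another gene. Over all tested TAPEs the share called was 48.8%. Of the 28 with a LOC gene, 14 belong to LOC300308. The groups are small, and no test was run between them.

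Gucy1a2, a subunit of soluble guanylate cyclase, was the gene of a TAPE with one of the highest means, 0.467 CPKM (chromosome 8, 180746 to 182817). It was near the chromosome end, where the window was truncated. Its mean was 0.576 ± 0.114 CPKM in striatum (SD, n = 7), 0.446 ± 0.135 in cortex (SD, n = 6) and 0.362 ± 0.086 in hippocampus (SD, n = 6), with a limma adjusted p of 0.0203.

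**Figure D2:**
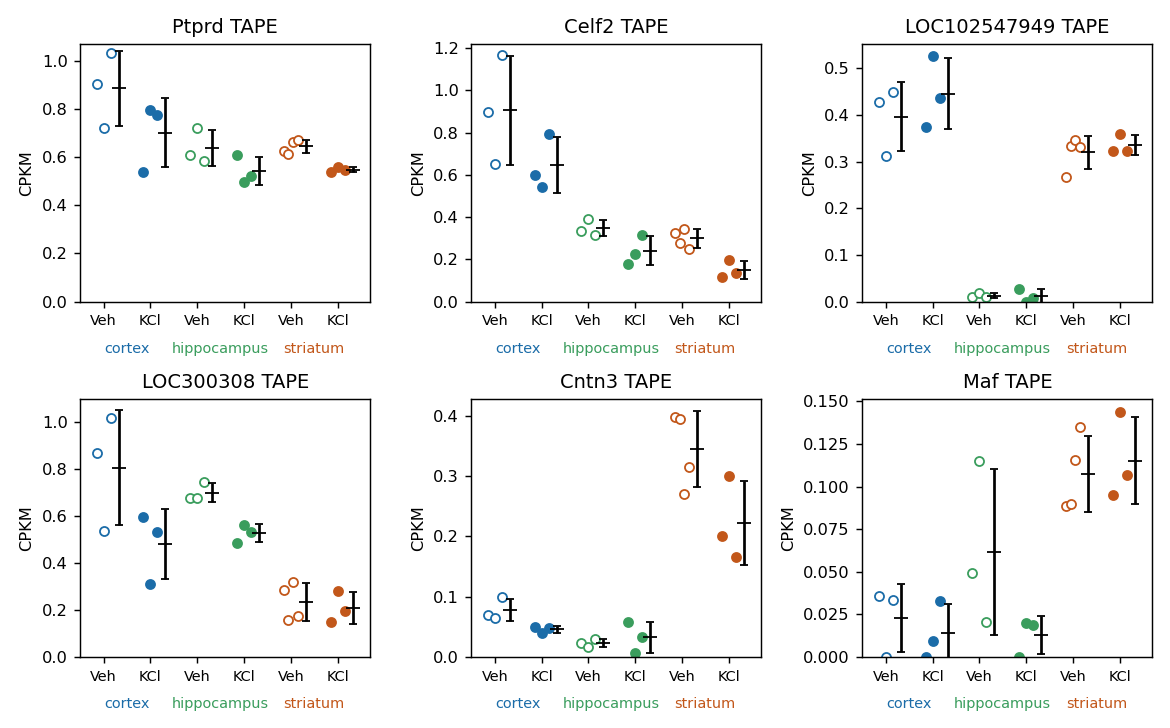
CPKM (y axis, linear) of 6 single-gene TAPEs in each library by region and treatment; open points are vehicle, filled points KCl, and bars the mean and SD of 3 libraries (4 in striatum vehicle). Ptprd and Celf2 are highest in cortex, LOC102547949 is near 0 in hippocampus, LOC300308 is lowest in striatum, and Cntn3 and Maf are highest in striatum.

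The next question was whether depolarization changed the single-gene TAPEs. With limma on the libraries of each region, none of the 44 was called in cortex, hippocampus or striatum at an adjusted p under 0.05. At an unadjusted p under 0.05 there were 6, 10 and 7, of which 6, 9 and 7 were lower after KCl (6.52%, 10.2% and 11.8% of all TAPEs tested). With limma voom on the recovered reads the calls were also 0 in each region, with 7, 8 and 5 at an unadjusted p under 0.05. Calls were scarce among all 1870 TAPEs too: 0.321% in cortex, 0.0535% in hippocampus and 1.23% in striatum at the adjusted threshold, and 10.4%, 13.3% and 15.1% at the unadjusted one. Nor was any of the 44 called for a KCl effect that differed between regions by limma (4 at an unadjusted p under 0.05, and by voom 0 and 4), where 0.0535% of all TAPEs were called and 8.24% passed unadjusted.

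As a group, the 44 leaned to lower values after KCl. The median log2 difference, KCl minus vehicle, was -0.32 for cortex, -0.20 for hippocampal and -0.22 for striatal libraries, and 37, 33 and 34 of the 44 were below 0. All 1870 TAPEs had medians of -0.09, -0.16 and -0.17, with 59.5%, 65.9% and 67.1% below 0. With each library centred on its median, the medians of the 44 were -0.25, -0.03 and -0.07. In all 3 regions, 23 of the 44 were below 0 and none above. No such count was made over all 1870 TAPEs, so it describes the 44 only and shows no shared change.

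For 2 of the 266 genes, LOC300308 and Celf2, the summed reads of every vehicle library stood above those of every KCl library in all 3 regions. Summed over the 26 TAPEs of LOC300308, reads per 1e6 library reads were 13.74, 10.55 and 13.41 in cortex vehicle against 9.72, 8.55 and 8.58 in cortex KCl. In hippocampus they were 11.05, 11.92 and 11.97 against 8.21, 8.55 and 8.58. In striatum they were 4.79, 4.47, 5.52 and 5.36 against 3.93, 3.72 and 3.76. These sums were singled out after their values were seen, and no test was run on them. The mean CPKM of the other TAPEs, those with more than 1 gene, was lower with KCl as well. It was 0.0196 with vehicle against 0.0180 with KCl in cortex, 0.0192 against 0.0170 in hippocampus and 0.0203 against 0.0178 in striatum, without overlap in striatum only. The median log2 difference of the 14 tested LOC300308 TAPEs was -0.44, -0.37 and -0.24 in cortex, hippocampus and striatum, and without them the medians of the other 30 were -0.30, -0.08 and -0.21.

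Groups without overlap were not rare: every KCl library lay below every vehicle library for 10.5% (cortex), 15.5% (hippocampus) and 9.73% (striatum) of all tested TAPEs, and for 8, 10 and 5 of the 44. The reverse, every KCl library above every vehicle library, held for 0, 3 and 0 of the 44, and its share over all tested TAPEs is not given. The TAPEs described next were picked for their small p, so a gap between treatments is part of that choice.

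In cortex, the 3 smallest p-values belonged to TAPEs of Celf2, LOC108349637 and Slitrk5. The Celf2 TAPE at 74804872 to 74806505 held 0.628, 0.616 and 0.809 CPKM with vehicle and 0.330, 0.319 and 0.474 with KCl, without overlap. The difference was -0.80 ± 0.22 (SE) log2 units (limma adjusted p = 0.197). The LOC108349637 TAPE (chromosome 1, 118402691 to 118403931) held 0.194, 0.200 and 0.263 CPKM against 0.0347, 0.0949 and 0.118, also without overlap (-1.07 ± 0.32 log2 units, limma adjusted p = 0.207). The Slitrk5 TAPE held 0.0755, 0.0649 and 0.0699 CPKM against 0, 0.0132 and 0.0229, again without overlap (-0.97 ± 0.31 log2 units, limma adjusted p = 0.26).

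In hippocampus, they belonged to TAPEs of Atxn7l3b, LOC300308 and Erap1, an aminopeptidase of the endoplasmic reticulum that trims peptides for antigen presentation. The Atxn7l3b TAPE (chromosome 7, 56087172 to 56088451) held 0.193, 0.175 and 0.255 CPKM with vehicle and 0.0410, 0.0689 and 0 with KCl. The difference was -1.65 ± 0.36 log2 units (limma adjusted p = 0.154), and the adjusted p was 0.0475 with TAPEs of at least 0.1 CPKM only and 0.0218 with all 6 groups in 1 limma fit. The LOC300308 TAPE at 22389446 to 22390668 held 0.231, 0.380 and 0.119 CPKM against 0.0143, 0.0577 and 0.0681, a difference of -1.55 ± 0.40 log2 units (limma adjusted p = 0.186, and 0.0303 in the fit of 6 groups). The Erap1 TAPE (chromosome 2, 544747 to 546363) held 0.197, 0.160 and 0.202 CPKM against 0.0974, 0.0436 and 0.0206 (-1.25 ± 0.32 log2 units, limma adjusted p = 0.186). It lay near the chromosome end, where the search window was cut short.

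In striatum, the 3 smallest p-values belonged to TAPEs of Celf2, LOC300308 and Zfp608. The Celf2 TAPE at 74780284 to 74782231 held 0.325, 0.279, 0.345 and 0.248 CPKM with vehicle and 0.116, 0.199 and 0.138 with KCl, without overlap (-0.81 ± 0.22 log2 units, limma adjusted p = 0.107). The LOC300308 TAPE at 22399404 to 22401080 held 0.0420, 0.0240, 0.0412 and 0.0618 CPKM against 0, 0.0220 and 0 (-0.69 ± 0.24 log2 units, limma adjusted p = 0.191). The Zfp608 TAPE (chromosome 18, 50019326 to 50020637) held 0.0537, 0.154, 0.0658 and 0.0527 CPKM against 0, 0.0281 and 0.0292 (-0.90 ± 0.33 log2 units, limma adjusted p = 0.218), and without striatum vehicle replicate 4 its vehicle values were all at or below 0.0658.

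**Figure D3:**
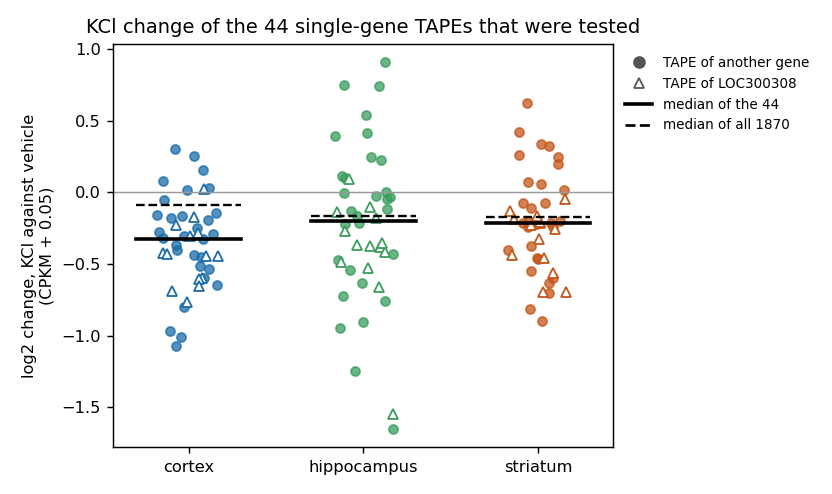
Log2 difference of KCl against vehicle (y axis, on CPKM + 0.05) in each region (x axis) for the 44 tested single-gene TAPEs, triangles being those of LOC300308. Solid lines are the medians of the 44 (-0.32, -0.20 and -0.22) and dashed lines those of all 1870 TAPEs (-0.09, -0.16 and -0.17); none of the points passed the adjusted threshold.

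The last question was how well a TAPE tracked the only gene within reach. The deposited table gives Pearson's r between TAPE CPKM and gene CPKM, over all libraries (global) and over those of each region. These values are used here as a description, since pairs share libraries and most TAPEs hold few reads. Over the 1516 single-gene TAPEs the median global r was 0.0447, 54.3% were above 0, and 89 (5.87%, Wilson 95% interval 4.80 to 7.17%, counting error only) were over 0.5. For the nearest gene of all 27538 TAPEs that share was 8.39%, and for all 388605 pairs 5.3%. Below -0.5 were 30 (1.98%), against 1.56% for nearest genes and 2.68% of all pairs. Most TAPEs with 1 candidate thus had a low r.

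Values far from 0 were more frequent among TAPEs that reached the testing minimum, but these belong to few genes: the 24 beyond 0.5 or -0.5 came from 9. Among the 44 tested TAPEs, 11 were over 0.5 (23.3% for the nearest gene of all tested TAPEs) and 13 were below -0.5 (5.67%). Among the 1472 others, 78 were over 0.5 and 17 below -0.5. By distance, the share over 0.5 was 6.25% for genes within 100 kb, 8.44% from 100 to 500 kb and 4.09% from 500 kb on.

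Tested TAPEs of genes with and without a name are given apart, with no test between them. Of the 28 tested TAPEs with a LOC gene, 6 had an r above 0, none was over 0.5 and 13 were below -0.5, which all belonged to LOC300308 (10) or LOC102547949 (3). Of the 16 with a named gene, 14 had an r above 0, 11 were over 0.5 and none below -0.5. Over all 1516, transcription factors had the highest share over 0.5 of the lists, 23 of 133 TAPEs (17.3%) with a median r of 0.21. The share was 5.87% for all single-gene TAPEs and 8.39% for the nearest gene of all TAPEs. The 133 belong to 15 genes, 36 of them to Zfp608 and 33 to Ebf1, so they are not independent. For cell adhesion genes the share over 0.5 was 23 of 263 (8.75%), for axon guidance genes 1 of 64 (1.56%), for ion channels 1 of 19, for receptors 1 of 19 and for LOC genes 9 of 312 (2.88%). Taking the median r of each gene's TAPEs, 5 of 266 genes (1.88%) were over 0.5: Maf at 0.74 with 4 TAPEs, Ptprd at 0.59 with 6, Meis2, a homeodomain transcription factor, at 0.54 with 5, and Zfp385d and Cntnap5c with 1 TAPE each. For Zfp608 the median was 0.23 over 36 TAPEs, with a range of -0.56 to 0.81.

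**Figure D4:**
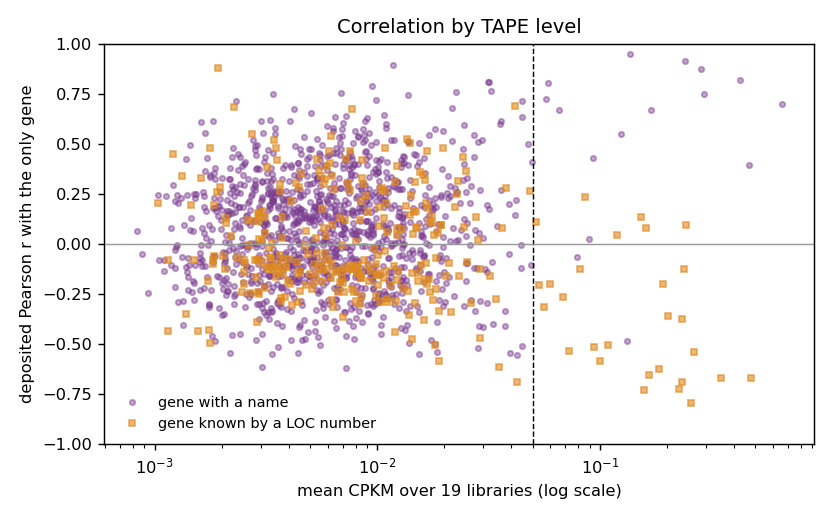
Deposited Pearson r with the only gene (y axis) against the mean CPKM of the TAPE over 19 libraries (x axis, log scale) for 1516 single-gene TAPEs; the dashed line marks 0.05 CPKM. To the right of the line, TAPEs of named genes reach 0.95 and those of genes known by a LOC number go down to -0.79.

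The highest global r, 0.95, was that of the Cntn3 TAPE. It was 0.64 over the cortex libraries, -0.23 in hippocampus and 0.85 in striatum. The Ptprd TAPEs at 93404418 and 93399110 followed at 0.92 and 0.88, but their r within cortex was 0.02 and -0.76, and within striatum 0.20 and 0.63. The strongest Celf2 TAPE had a global r of 0.82 and was over 0.5 in each region as well, at 0.92 for cortex, 0.71 for hippocampus and 0.87 for striatum. The Maf TAPE had 0.80 globally, -0.41 in cortex, -0.59 in hippocampus and 0.13 in striatum. The Cntn3, Ptprd and Maf TAPEs are among the 7 tested ones whose RefSeq gene model was longer by at least the gap. All 7 had a global r over 0.5, and whether they lie inside their gene was not tested. Of the 89 with a global r over 0.5, 39 had an r in all 3 regions, and 2 of these were over 0.5 in each, both with Celf2. In no region over 0.5 were 38 of the 89, counting those that lack an r in a region. Of the 1200 single-gene TAPEs with an r in cortex 14.9% were over 0.5, of the 1122 in hippocampus 18.5% and of the 1144 in striatum 15.6%, each over 6 or 7 libraries only. Under -0.5 were 16.6%, 14.8% and 9.70% in the same order, so values far from 0 were more frequent on both sides than globally.

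The lowest global r values were -0.79 for the LOC102547949 TAPE at 254530148 and -0.73 for each of the LOC300308 TAPEs at 22361815 and 22015408. LOC300308 had no r in hippocampus, where the gene did not vary.

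Gene levels per library are not part of the table used here, but many can be solved from it. A gene's r with at least 18 independent TAPEs fixes its standardized profile over the 19 libraries, in SD units around its mean with no absolute level. This worked for 127 of the 266 genes, which cover 840 single-gene TAPEs, 30 of them tested. Cntn3 averaged 1.26 in striatum, -0.61 in cortex and -0.85 in hippocampus, and its lowest striatal library (1.01) lay above its highest cortical one (-0.53). Maf averaged 1.24, -0.83 and -0.62 and Meis2 1.23, -0.40 and -1.03 in the same order of regions. Ebf1, whose 33 TAPEs all stayed below the testing minimum, averaged 1.26 in striatum, -0.75 in cortex and -0.72 in hippocampus, and none of its TAPEs had an r over 0.5 (maximum 0.46). Summed over its TAPEs, Ebf1 reads per 1e6 library reads were 0.342 ± 0.082 in striatum (SD, n = 7), 0.218 ± 0.143 in cortex (SD, n = 6) and 0.249 ± 0.107 in hippocampus (SD, n = 6), with overlap.

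Celf2 moved with treatment as well as region. Its profile averaged 1.34 in cortex vehicle and 0.47 in cortex KCl, -0.01 and -1.37 in hippocampus, and 0.28 and -0.81 in striatum. Over its 22 TAPEs, reads per 1e6 library reads were 3.70 ± 0.80 and 2.40 ± 0.28 in cortex, 1.31 ± 0.19 and 1.05 ± 0.07 in hippocampus and 1.51 ± 0.22 and 0.813 ± 0.228 in striatum for vehicle and KCl (SD, n = 3, with n = 4 in striatum vehicle). Both were lower with KCl in each region. Neither series was tested, as profiles carry no error of their own.

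LOC300308 went the other way. The gene was above its lowest value in 10 libraries, 3 cortical and 7 striatal, and averaged 0.99 in striatum, -0.35 in cortex and -0.80 in hippocampus, whereas 12 of its 14 tested TAPEs had their lowest mean in striatum. Of 30 tested TAPEs with a solved gene profile, 9 were highest in the same region as their gene, 8 of the 11 with a named gene and 1 of the 19 with a LOC gene. In 18 the TAPE was lowest where its gene was highest. Of the 19 with a LOC gene, 14 belong to LOC300308, and the 12 of these that were lowest in striatum are among the 18. They are neighbours on 1 chromosome that share 1 gene profile, so these counts are not of independent TAPEs.

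**Figure D5:**
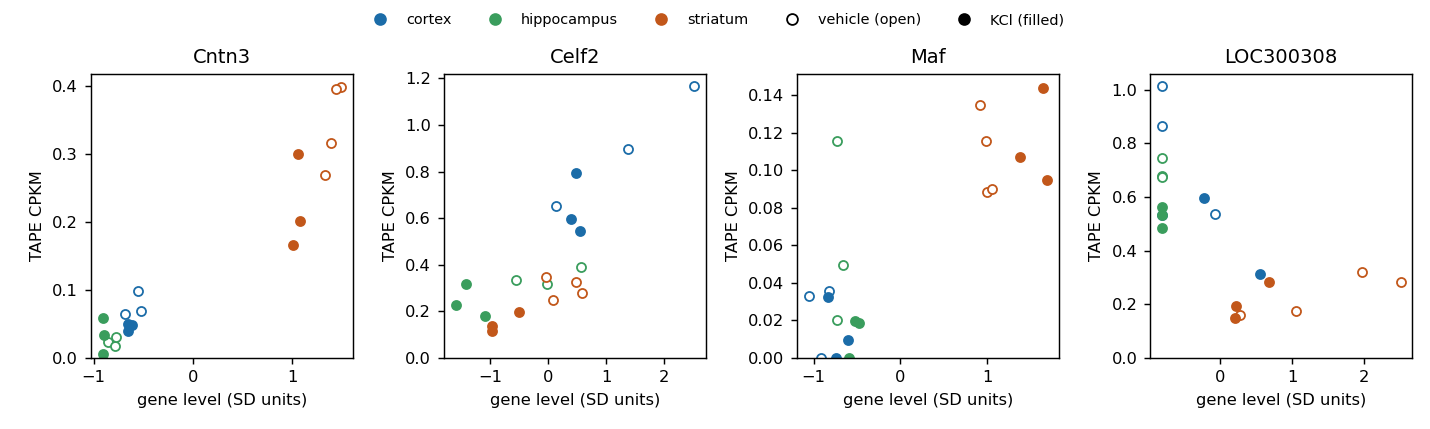
TAPE CPKM (y axis) against the level of its only gene solved from the deposited correlations (x axis, SD units over 19 libraries) for Cntn3, Celf2, Maf and LOC300308, 1 point per library. Cntn3 and Maf form a striatal cluster apart from the rest, Celf2 is higher where its TAPE is higher, and the LOC300308 TAPE is highest where the gene is at its lowest.

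Some of the only genes were detected in few libraries. Of the 127 solved profiles, 31 sat at their lowest value in more than 1 library, 16 of 23 LOC genes and 15 of 104 others. Of these, 10 genes were above it in 1 library only, among them LOC499584 and Spata31e1 with 17 TAPEs each, and r then rests on that 1 library. These 31 genes accounted for 225 single-gene TAPEs, 18 of them tested. For the 49 TAPEs with an r over 0.5 and a solved gene profile, 21 stayed over 0.5 whichever library was left out, including all 7 that were tested. Without any 1 library the r of the Cntn3 TAPE stayed between 0.94 and 0.97, that of the strongest Celf2 TAPE between 0.71 and 0.85, and that of the Maf TAPE between 0.76 and 0.90. Spearman's rho for these was 0.90, 0.71 and 0.57.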

How the data were processed

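Total RNA-seq libraries were trimmed with Trim Galore 0.4.5 and aligned to Rn6 by the authors, who counted reads of mapping quality 20 or more over TAPEs in SeqMonk. The deposited TAPE values are RPKM (called CPKM), and the correlations are a score, Pearson's r, that the authors deposited. Gene coordinates are Rn6. The members and gene lists were chosen with earlier results of these data known.

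CPKM times length fell on whole reads for 100% of values (tolerance 0.02), which gave library totals and reads. TAPEs with a mean of 0.05 CPKM or more were tested on log2(CPKM + 0.05) with limma 3.58.1 (R 4.3.3, trend, two-sided, Benjamini-Hochberg over all 1870 TAPEs): KCl against vehicle within region, their interaction, and region with treatments pooled. Low values make this scale understate changes. The fits were tested on simulated data, where most 2-fold KCl changes were not recovered, so moderate changes can be missed.

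Named TAPEs (24) are those called for KCl or, with none, the 3 smallest p of each region; the 5 smallest adjusted p selective for each region; the 5 highest means; the 5 highest and 3 lowest r; the nearest and farthest; and genes, the 10 with most TAPEs. RefSeq matched 228 of 266 symbols directly, 1 by synonym and 15 by gene ID. Alternatives were another pseudocount, other filters, centring, voom, other fits and leaving out libraries. The table's values per pair repeat each TAPE and were taken once.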

Additional observations from a re-analysis of the deposited data

Results flagged for a closer look

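Only the striatum vehicle group had enough libraries (4) for a check of single libraries that stand apart, by the gap of the extreme library over the group's range. Of 27 values examined, 4 stood apart, where chance gives about 1 in 20. The Zfp608 TAPE at 50019326 had a gap ratio of 0.870: replicate 4 held 0.154 CPKM and the others 0.0527, 0.0537 and 0.0658. The Gucy1a2 TAPE at 180746 had a ratio of 0.899: replicate 8 held 0.692 CPKM and the others 0.450, 0.457 and 0.475. Replicate 4 also had the smallest total, 49.6 against 56.8 to 58.0 (in units of 1e6 reads) (ratio 0.863), and 491 single-gene TAPEs with a read against 541 to 550 (ratio 0.848). The part of depth in the Zfp608 value was not tested.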

How the results depend on the processing

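KCl calls among the single-gene TAPEs stayed at 0 in cortex, striatum and the interaction under each alternative run, and leaving out any 1 library gave 0 to 0 in all 3 regions and for the interaction. In hippocampus there was 1 call with a minimum of 0.1 CPKM (9 of all 867 TAPEs) and 2 in 1 fit of all 6 groups (19 of all 1870). In that fit both the single-gene TAPEs called were lower after KCl, and the cause was not tested. Region calls, 35 of 44 (912 of all 1870), were 75 of 1516 with no filter, where more TAPEs are tested (2026 of all 27538). With 1 library left out they were 30 to 36 of the 44, beside 852 to 902 of all 1870. Shared replicate numbers left no visible pairing. Same-numbered vehicle and KCl libraries had correlations of their deviations from -0.042 to 0.014 within cortex and hippocampus, and the 20 same-numbered pairs across regions from -0.033 to 0.0654. With few reads per TAPE, such correlations can stay near 0 in paired cultures too, so pairing is not excluded. With the number as a replicate block, region calls were 18 of 44 (568 of all 1870), and the interaction count and the KCl counts of cortex and hippocampus stayed at 0. In striatum vehicle and KCl libraries share no number, so no block could be fitted. Leaving out LOC300308 was chosen after seeing the data. The share of r over 0.5, 5.87%, was 14.92, 18.54 and 15.56% within cortex, hippocampus and striatum. There the nearest gene of the other TAPEs gave 17.4, 18.1 and 14.8%. Within regions the share of single-gene TAPEs under -0.5 was higher too, at 16.6, 14.8 and 9.70% in that order. The share over 0.5 was 25% and 27.59% at means of at least 0.05 and 0.1 CPKM, and 1.88% with 1 value per gene. It was 5.36 to 6.55% with 1 library left out, for genes with a solved profile. Of 123 values of named TAPEs under other settings, 119 kept direction and side of the threshold, 3 gained it and 1 lost it (the Maf region call under the block). With fewer than 10 reads behind 40.3% of single-gene TAPEs, most cannot be ranked by level, treatment or r.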
